A study of Mus musculus with 6 samples.

Results

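The naive pluripotency factors are genes that mark or help to sustain the ground state of mouse embryonic stem cells (mESCs). The 10 members were chosen by name for that role, with earlier results of these data known: Fgf4, Esrrb, Nr0b1, Klf2, Klf4, Klf5, Tfcp2l1, Tbx3, Zfp42 and Prdm14. Gene symbols from GENCODE were matched to the Ensembl identifiers in the expression tables without their versions. All 10 were found among 55401 listed genes, and all 10 were among the 14156 genes tested, which had a mean of at least 0.5 TPM, the length-scaled share of the transcripts in a library.

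The 6 libraries were poly(A) RNA-seq of 46C mESCs, in 3 groups of 2. By the study's methods, every group carried a lentiviral BirA biotin ligase. On top of it, controls stably expressed the biotin tag alone, Rbbp4 OE cells expressed biotin-Rbbp4 and Rbbp7 OE cells expressed biotin-Rbbp7, each after lentiviral infection and antibiotic selection. All cells grew in 15% fetal bovine serum with leukemia inhibitory factor (LIF), 3 µM Chir99021 (an inhibitor of the kinase GSK3) and 1 µM PD0325901 (an inhibitor of the kinase MEK). No source used here says whether the replicates were separate cultures, so p-values measure only the spread between these libraries, which may be technical.

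As background, the naive state is held by transcription factors that sit downstream of a few signals. LIF acts through the receptor subunits LIFR and gp130 and the factor STAT3, which turns on Klf4, Tfcp2l1 and other genes. Inhibition of GSK3 relieves repression by TCF7L1, with Esrrb as a main beneficiary, and inhibition of MEK blocks the signal that FGF4, made by the cells themselves, sends towards exit from this state. RBBP4 and RBBP7 are homologous histone-binding proteins shared by several chromatin complexes, and the comparisons ask whether more of either one went with a different level of these factors.

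The labels were checked first. Rbbp4 was 146.02 and 147 TPM in the controls, 269.97 and 271.2 TPM under Rbbp4 OE and 143.92 and 142.66 TPM under Rbbp7 OE. Rbbp7 was 238.55 and 237.14 TPM in the controls, 207.58 and 217.48 TPM under Rbbp4 OE and 724.74 and 748.06 TPM under Rbbp7 OE. Each overexpressed gene was thus highest in the libraries labelled for it. All 8 markers of embryonic stem cells used for this check had at least 1 TPM in every library, with summed levels from 7201 to 8399 TPM. None of 8 primitive endoderm markers reached 1 TPM in both libraries of any group, and their sum was at most 3.38 TPM. Of the other lists, Neurog2 (neural) and Lum and Postn (fibroblast) were listed at 0 in all 6 libraries, while the mesoderm sum was 7.14 to 8.98 TPM in control, 11.06 to 13.77 TPM in Rbbp4 OE and 14.82 to 16.14 TPM in Rbbp7 OE, mostly from Eomes. The fibroblast sum, mostly from Thy1, was 4.48 to 5.59 TPM, 9.09 to 11.68 TPM and 8.75 to 15.72 TPM in the same order, the trophoblast sum, mostly from Tfap2c, 36.49 to 40.29 TPM, 48.9 to 49.41 TPM and 45.5 to 46.3 TPM, and the neural sum, mostly from Nes, 6.54 to 6.98 TPM, 7.57 to 7.65 TPM and 5.96 to 6.6 TPM. Between control and each line these sums, that of the stem cell markers included, did not overlap, except the neural sum in Rbbp7 OE, and their part in the results was not tested. In bulk libraries, fewer cells of a type and less RNA per cell cannot be told apart.

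Levels of the factors differed by over 10-fold among themselves. TPM is scaled by transcript length, so levels can be set side by side between genes. In control, Zfp42 was highest at 427 TPM ± 7.1 (SD, n = 2), followed by Esrrb at 308 TPM ± 33 (SD, n = 2), Klf2 at 283 TPM ± 2.0 (SD, n = 2), Klf4 at 208 TPM ± 43 (SD, n = 2) and Tbx3 at 143 TPM ± 9.0 (SD, n = 2). Tfcp2l1 at 115 TPM ± 17 (SD, n = 2), Klf5 at 94.8 TPM ± 14 (SD, n = 2), Fgf4 at 68.0 TPM ± 6.2 (SD, n = 2), Nr0b1 at 58.8 TPM ± 4.4 (SD, n = 2) and Prdm14 at 30.4 TPM ± 0.82 (SD, n = 2) completed the order. Set against the sum of their SDs, 3 pairs of neighbours in this order did not differ: Esrrb and Klf2, Tfcp2l1 and Klf5, and Fgf4 and Nr0b1. Among all listed genes, Zfp42 ranked between 279 and 330 from the top in every library and Prdm14 between 3727 and 4374.

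In the overexpression lines some neighbours changed places, and except for Tbx3 and Klf4 these pairs did not differ beyond their SDs in control. In Rbbp4 OE, Klf2 (394 TPM ± 11, SD, n = 2) stood above Esrrb (256 TPM ± 4.1, SD, n = 2) by more than the sum of their SDs, and Tbx3 (174 TPM ± 8.6, SD, n = 2) stood above Klf4 (151 TPM ± 13, SD, n = 2) by more than that sum. Fgf4 (49.4 TPM ± 0.13, SD, n = 2) stood below Nr0b1 (66.4 TPM ± 4.8, SD, n = 2). In Rbbp7 OE, Klf2 and Esrrb again did not differ beyond their SDs, nor did Klf4 and Tbx3, while Klf5 stood above Tfcp2l1 and Nr0b1 above Fgf4 by more than the sum of their SDs. Zfp42 was highest and Prdm14 lowest in each of the 3 groups. The summed level of the 10 factors was 1643 and 1831 TPM in the controls, 1740 and 1670 TPM under Rbbp4 OE and 1816 and 1889 TPM under Rbbp7 OE, so these sums overlapped between all 3 groups except for Rbbp4 OE and Rbbp7 OE.

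**Figure D1:**
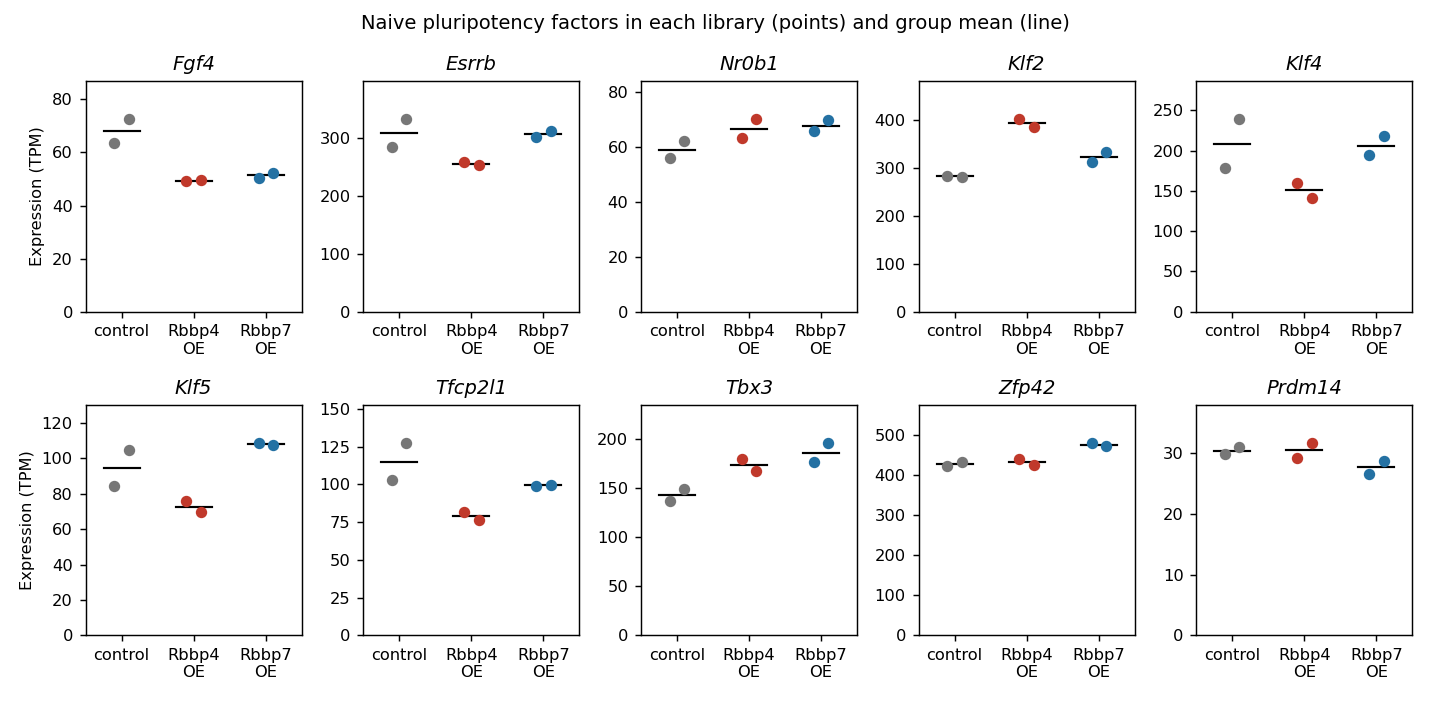
Expression in TPM (y axis, from 0) of each of the 10 factors in the control, Rbbp4 OE and Rbbp7 OE libraries (x axis). Points are the 2 libraries of a group and lines their mean; Klf2 lies highest in both Rbbp4 OE libraries, while Tfcp2l1, Klf4, Klf5 and Esrrb lie lowest there.

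With Rbbp4 overexpressed, 1 factor rose and 2 fell at an adjusted p under 0.05. Klf2 rose 1.39-fold, whereas Tfcp2l1 fell to 0.696 and Fgf4 to 0.732 of its control level. These 3 of 10 stand beside 11.4% of all genes tested at that threshold, 3.29% higher and 8.07% lower. The split of all calls moved with the scaling: 71.0% of them were lower with the TPM as deposited, 51.9% with median-of-ratios scaling and 54.8% with quantile normalization, and under both of the latter Tbx3 joined the 3 factors, 2 higher and 2 lower. At the study's own thresholds for genes, an adjusted p under 0.01 and a fold over 2, limma called 0 of the 10, against 0.516% of all genes. At an unadjusted p under 0.05 there were 7 of the 10, 2 higher and 5 lower, where 29.6% of all genes passed, 9.01% higher and 20.6% lower. The libraries of the 2 groups did not overlap for 8 of the 10, 3 higher and 5 lower, beside 57.9% of all genes, 20.8% higher and 37.1% lower. The median log2 fold change of the 10 was -0.13, beside -0.08 for all genes tested, and was -0.031 with median-of-ratios scaling, -0.20 without control replicate 1 and -0.063 without control replicate 2. The count of 3 rested on single libraries: it was 6 without control replicate 1 and 0 without control replicate 2, Rbbp4 OE replicate 1 or Rbbp4 OE replicate 2, and 1 without either Rbbp7 OE library. With 1 library left out, the log2 fold change ranged from 0.45 to 0.51 for Klf2, from -0.68 to -0.37 for Tfcp2l1 and from -0.54 to -0.36 for Fgf4.

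Upstream sequence is shown for the 3 factors that changed, because both directions of change are among them. The stretches come from RefSeq on GRCm38.p6, all on the plus strand, and end at the base before the annotated start, or for Klf2 before the GENCODE start, which lies a little upstream. The RefSeq start of Fgf4 lies inside the longer GENCODE gene, in an intron of a transcript that starts further upstream. Capitals mark GC boxes (GGGCGG, the site type bound by SP factors) and KLF boxes (GGGNGTG, the site type bound by KLF proteins), on either strand.
Klf2, chr8:72318812-72319032: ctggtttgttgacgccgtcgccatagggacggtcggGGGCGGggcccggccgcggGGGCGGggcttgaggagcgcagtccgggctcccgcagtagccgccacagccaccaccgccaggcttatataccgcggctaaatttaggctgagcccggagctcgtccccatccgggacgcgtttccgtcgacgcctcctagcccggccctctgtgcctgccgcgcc
Tfcp2l1, chr1:118627695-118627944: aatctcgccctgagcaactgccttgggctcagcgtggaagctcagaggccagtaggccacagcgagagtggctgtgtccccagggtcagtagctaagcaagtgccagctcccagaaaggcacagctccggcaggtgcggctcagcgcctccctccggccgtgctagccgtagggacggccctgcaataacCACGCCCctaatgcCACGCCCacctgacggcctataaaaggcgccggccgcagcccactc
Fgf4, chr7:144861136-144861385: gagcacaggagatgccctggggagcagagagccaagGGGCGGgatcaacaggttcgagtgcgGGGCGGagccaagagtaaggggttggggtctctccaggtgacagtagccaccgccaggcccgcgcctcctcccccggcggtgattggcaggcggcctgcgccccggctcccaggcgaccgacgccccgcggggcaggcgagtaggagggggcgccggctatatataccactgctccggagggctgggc
The Klf2 stretch, of the factor that rose, held 2 GC boxes and no KLF box, as did that of Fgf4, which fell. The Tfcp2l1 stretch held 2 KLF boxes, 60 and 46 bases before the start, and no GC box.

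Promoter windows were given for 7 of the 10 factors, with 2 starts for Esrrb. Klf5, Tbx3 and Prdm14 had no entry. Over the 8 windows of 250 bases, 4 held a KLF box and 4 a GC box, beside 26.1% and 32.7% of 32851 windows of the same length. A STAT site (TTCCNNGAA) was found in 1 of the 8, at a start of Esrrb, beside 4.06% of all windows, and an octamer (ATGCAAAT, bound by OCT4) in 1, at Zfp42, beside 1.6%. TATAAA was found in 2 of the 8, at Nr0b1 and Tfcp2l1, beside 12.4%, and the ESRRB site AAGGTCA (4.08% of all) and the TCF site CTTTGAA (4.46% of all) in none. The motifs were searched on both strands, and KLF boxes and GC boxes may overlap each other. A match describes the letters only.

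Among the KLF factors, Klf2 rose in Rbbp4 OE, whereas Klf4 and Klf5 had values below control that did not pass. KLF2, KLF4 and KLF5 are zinc finger transcription factors that share many target genes in mESCs. Klf2 (ENSMUSG00000055148.7, GRCm38 chromosome 8, 72319033 to 72321656) had 284.21 and 281.4 TPM in the controls, 401.92 and 386.2 TPM under Rbbp4 OE and 313.79 and 334.89 TPM under Rbbp7 OE. Both Rbbp4 OE libraries were above the other 4, and both Rbbp7 OE libraries were above the controls. Against control, Rbbp4 OE gave Klf2 a log2 fold change of 0.48 (SE 0.052, 95% confidence interval 0.35 to 0.60, limma adjusted p = 0.00884), and 20.1% of all genes tested had a larger absolute value. It was 0.47 without control replicate 2, 0.45 without Rbbp4 OE replicate 1 and 0.51 without Rbbp4 OE replicate 2, and did not pass in these fits. The direction was kept in all 16 alternatives, but several of them cannot change the fold change. Klf2 has the highest GC content of the 10 factors, 61.6% in its longest transcript, and the 660 tested genes within 2 percentage points of it had a median log2 fold change of 0.09. After a correction of each library for GC content and transcript length, added once these values were known, the log2 fold change of Klf2 was 0.30 (limma adjusted p = 0.0312).

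Klf4 (ENSMUSG00000003032.8, chromosome 4, 55527143 to 55532466), a target of LIF and STAT3, had 178.19 and 238.61 TPM in the controls, 159.83 and 141.48 TPM under Rbbp4 OE and 194.26 and 217.67 TPM under Rbbp7 OE. The Rbbp4 OE libraries were below the rest, but the controls were far apart, and the log2 fold change of -0.45 (SE 0.15, 95% confidence interval -0.81 to -0.10) did not pass (limma adjusted p = 0.0969). It was -0.66 (limma adjusted p = 0.0425) without control replicate 1 and -0.24 without control replicate 2.

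Klf5 (ENSMUSG00000005148.8, chromosome 14, 99298691 to 99315036) had 84.68 and 104.82 TPM in the controls, 76.01 and 69.66 TPM under Rbbp4 OE and 108.65 and 107.59 TPM under Rbbp7 OE. Its lowest libraries were those of Rbbp4 OE and its highest those of Rbbp7 OE. Against control, Rbbp4 OE gave it a log2 fold change of -0.37 (SE 0.11, 95% confidence interval -0.63 to -0.10, limma adjusted p = 0.0796), and it was -0.52 (limma adjusted p = 0.0334) without control replicate 1 and -0.22 (limma adjusted p = 0.178) without control replicate 2.

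The make-up of the KLF pool was set side by side after these values were seen, as a description. The summed level of the 3 genes was 547 and 625 TPM in the controls, 638 and 597 TPM under Rbbp4 OE and 617 and 660 TPM under Rbbp7 OE, and so overlapped between all 3 groups. Klf2 made up 52.0% and 45.0% of that sum in the controls, 63.0% and 64.7% under Rbbp4 OE and 50.9% and 50.7% under Rbbp7 OE. The ratio of Klf2 to Klf4 was 1.59 and 1.18, 2.51 and 2.73, and 1.62 and 1.54 in the same order. The Rbbp4 OE libraries thus held the highest Klf2 share and ratio of all 6, while the KLF sums overlapped.

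**Figure D2:**
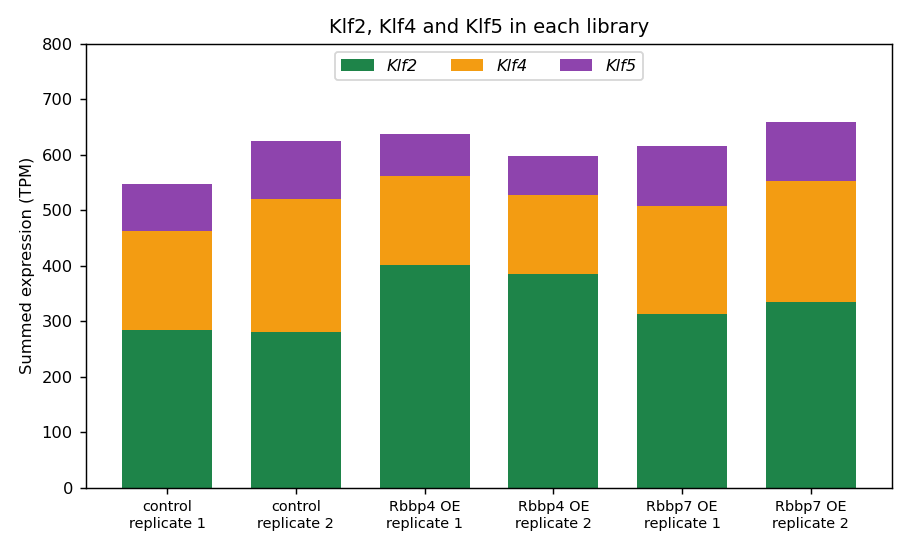
Stacked expression (TPM, y axis, from 0) of Klf2, Klf4 and Klf5 in each of the 6 libraries (x axis). Klf2 takes 63.0% and 64.7% of the bar in the Rbbp4 OE libraries and 45.0% to 52.0% in the other 4.

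Tfcp2l1 fell in Rbbp4 OE. It encodes a CP2 family transcription factor, a STAT3 target that can sustain self-renewal. Tfcp2l1 (ENSMUSG00000026380.10, chromosome 1, 118627945 to 118685168) had 102.87 and 127.38 TPM in the controls, 82.01 and 76.77 TPM under Rbbp4 OE and 99.04 and 99.91 TPM under Rbbp7 OE. Both Rbbp4 OE libraries were lowest, and both Rbbp7 OE libraries lay just under the lower control. Against control, Rbbp4 OE gave Tfcp2l1 a log2 fold change of -0.52 (SE 0.11, 95% confidence interval -0.78 to -0.27, limma adjusted p = 0.033), and 16.9% of all genes had a larger absolute value. Tfcp2l1 has the longest transcript of the 10, at 9269 nucleotides, and the 538 genes of similar length had a median of -0.21. With the same correction of each library, its log2 fold change was -0.34 (limma adjusted p = 0.0373), beside -0.43 (limma adjusted p = 0.0312) for Fgf4. It passed in 1 of the 6 fits without a library, at -0.68 (limma adjusted p = 0.0245) without control replicate 1, and its adjusted p in the other 5 was 0.0701 without control replicate 2, 0.158 without Rbbp4 OE replicate 1, 0.207 without Rbbp4 OE replicate 2, 0.0989 without Rbbp7 OE replicate 1 and 0.0981 without Rbbp7 OE replicate 2.

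Fgf4, the secreted growth factor of the list and a target of OCT4 and SOX2, had lower values in both overexpression lines. Only the value in Rbbp4 OE passed an adjusted p under 0.05. Fgf4 (ENSMUSG00000050917.5, chromosome 7, 144847367 to 144865243) had 63.62 and 72.43 TPM in the controls, 49.31 and 49.49 TPM under Rbbp4 OE and 50.54 and 52.32 TPM under Rbbp7 OE. All 4 overexpression libraries were below both controls. The log2 fold change was -0.45 in Rbbp4 OE (SE 0.082, 95% confidence interval -0.65 to -0.25, limma adjusted p = 0.0255) and -0.39 in Rbbp7 OE (SE 0.082, 95% confidence interval -0.59 to -0.19, limma adjusted p = 0.124). These share their controls, and the direct difference between the lines was -0.06 (95% confidence interval -0.26 to 0.14, limma adjusted p = 0.739), turning to 0.038 with median-of-ratios scaling and 0.0098 with quantile normalization. In Rbbp4 OE the adjusted p of Fgf4 was 0.027 without control replicate 1, 0.0686 without control replicate 2, 0.149 and 0.166 without Rbbp4 OE replicates 1 and 2, and 0.0783 and 0.0789 without Rbbp7 OE replicates 1 and 2.

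The 2 genes of the nuclear receptor family gave smaller values. Esrrb (ENSMUSG00000021255.17, chromosome 12, 86361117 to 86521628), an orphan nuclear receptor that activates the naive network, had 284.53 and 331.72 TPM in the controls, 258.39 and 252.62 TPM under Rbbp4 OE and 301.41 and 311.08 TPM under Rbbp7 OE. The Rbbp4 OE libraries were lowest, with a log2 fold change of -0.27 (95% confidence interval -0.45 to -0.08, limma adjusted p = 0.0785), and the Rbbp7 OE libraries lay between the controls. Without control replicate 1, the value for Esrrb in Rbbp4 OE was -0.38 (limma adjusted p = 0.0274), and without control replicate 2 it was -0.15 (limma adjusted p = 0.136). Nr0b1 (ENSMUSG00000025056.4, chromosome X, 86191764 to 86195947), which encodes DAX1, a receptor-like repressor without a classical DNA-binding domain, had 55.69 and 61.86 TPM in the controls, 63.03 and 69.85 TPM under Rbbp4 OE and 65.54 and 69.51 TPM under Rbbp7 OE. All 4 overexpression libraries were above both controls for Nr0b1, by log2 fold changes of 0.17 and 0.20 that did not pass (limma adjusted p = 0.244 and 0.35). These values share their controls. In Rbbp4 OE the value for Nr0b1 was 0.10 without control replicate 1 or Rbbp4 OE replicate 2 and 0.075 with the GC and length correction, and in Rbbp7 OE it was 0.12 without control replicate 1.

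Tbx3, a T-box factor downstream of LIF, was higher in both lines. Tbx3 (ENSMUSG00000018604.18, chromosome 5, 119670669 to 119684724) had 136.79 and 149.46 TPM in the controls, 180.19 and 167.99 TPM under Rbbp4 OE and 176.81 and 195.96 TPM under Rbbp7 OE. All 4 overexpression libraries were above both controls, which the comparisons of both lines share. The log2 fold change was 0.28 in Rbbp4 OE (95% confidence interval 0.09 to 0.47, limma adjusted p = 0.0709) and 0.38 in Rbbp7 OE (95% confidence interval 0.19 to 0.57, limma adjusted p = 0.124), and neither passed, although Tbx3 in Rbbp4 OE passed in 4 of 16 alternatives, with an adjusted p of 0.0359 under median-of-ratios scaling. An antisense gene, Tbx3os1, overlaps it with a mean of 1.13 TPM, and without knowledge of strand in the counting their reads at the overlap cannot be told apart.

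Zfp42 and Prdm14 had the smallest log2 fold changes in Rbbp4 OE. Zfp42 (ENSMUSG00000051176.6, chromosome 8, 43295063 to 43306980) encodes the zinc finger protein REX1, a classic naive marker. It had 422.2 and 432.23 TPM in the controls, 440.33 and 424.45 TPM under Rbbp4 OE and 479.12 and 471.6 TPM under Rbbp7 OE. Control and Rbbp4 OE overlapped, with a log2 fold change of 0.02 (95% confidence interval -0.09 to 0.12, limma adjusted p = 0.83), while both Rbbp7 OE libraries were above the other 4, at 0.15 against control (95% confidence interval 0.05 to 0.26, limma adjusted p = 0.2). Of the 50-base words in its longest transcript, 9.17% also occur in other genes, mainly the pseudogene Zfp42-ps1, which had at most 3.91 TPM. For the other 9 factors that share was at most 1.36%.

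Prdm14 (ENSMUSG00000042414.7, chromosome 1, 13113457 to 13127163) encodes a PR domain protein that represses FGF receptor signalling and de novo DNA methyltransferase genes. It had 29.83 and 30.99 TPM in the controls, 29.29 and 31.67 TPM under Rbbp4 OE and 26.66 and 28.78 TPM under Rbbp7 OE. Control lay within the range of Rbbp4 OE, with a log2 fold change of 0.0024 (95% confidence interval -0.21 to 0.21, limma adjusted p = 0.991). The Rbbp7 OE libraries were lowest, at -0.13 (95% confidence interval -0.34 to 0.08, limma adjusted p = 0.526).

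**Figure D3:**
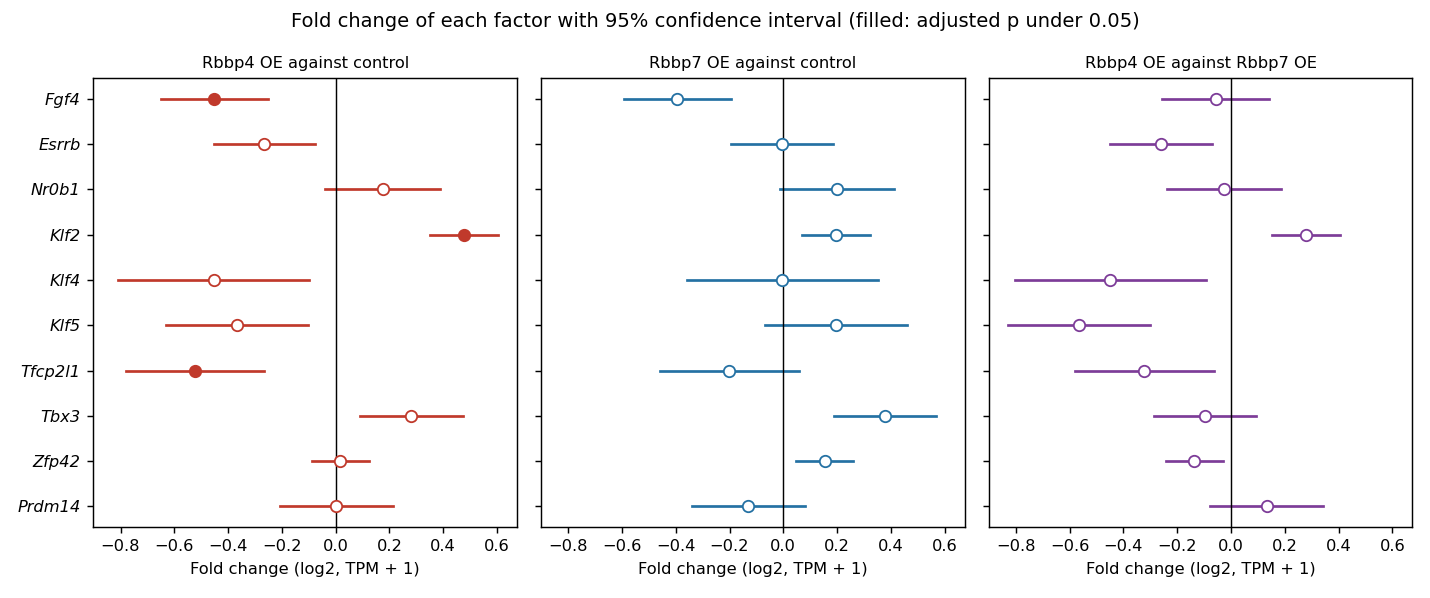
Log2 fold change on the log2(TPM + 1) scale (x axis) of each factor (y axis) in the 3 comparisons, with 95% confidence intervals from limma; filled points have an adjusted p under 0.05. Only Klf2, Tfcp2l1 and Fgf4 in Rbbp4 OE against control are filled.

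With Rbbp7 overexpressed, no factor passed an adjusted p under 0.05 in limma, where 0.487% of all genes did, 0.198% higher and 0.29% lower. Without adjustment, 4 of the 10 had a p under 0.05, namely Tbx3, Klf2 and Zfp42 higher and Fgf4 lower, beside 15.4% of all genes, 7.26% higher and 8.14% lower. Klf2 had a log2 fold change of 0.20 (95% confidence interval 0.07 to 0.32, limma adjusted p = 0.184), which became 0.10 with the correction for GC content and length, and genes of like GC content had a median of 0.09. The median over the 10 factors was 0.07, beside -0.0037 for all genes, but it was -0.04 without control replicate 1 and 0.18 without control replicate 2. Libraries of the 2 groups stood apart for 8 of the 10, 5 higher and 3 lower, beside 44.5% of all genes, 21.2% higher and 23.4% lower. At the study's thresholds limma called 0 of the 10 and 0.0353% of all genes. Esrrb and Klf4 had log2 fold changes of -0.0048 and -0.0040 in Rbbp7 OE, with 95% confidence intervals of -0.19 to 0.18 and -0.36 to 0.35, and both turned positive under quantile normalization and Klf4 also under median-of-ratios scaling.

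The lines were then compared directly, which is the test of whether they differed. No factor passed an adjusted p under 0.05 in limma, where 0.304% of all genes did, 0.177% higher and 0.127% lower, so that 41.9% of all calls were lower, against 25% with median-of-ratios scaling and 57.1% with the GC and length correction. At the study's thresholds limma called 0 of the 10, and 0.0494% of all genes were called. At an unadjusted p under 0.05 there were 6 of the 10, Klf2 higher in Rbbp4 OE and Klf5, Klf4, Tfcp2l1, Esrrb and Zfp42 lower, beside 19% of all genes, 4.91% higher and 14.1% lower. That count was lower when any 1 of the Rbbp4 OE or Rbbp7 OE libraries was left out. Whether this was particular to the factors was not tested. Libraries stood apart for 8 of the 10, 2 higher and 6 lower, beside 54.7% of all genes, 16.1% higher and 38.6% lower. The largest difference was that of Klf5, at -0.56 (SE 0.11, 95% confidence interval -0.83 to -0.30, limma adjusted p = 0.112), and 8.61% of all genes had a larger absolute value. Klf4 differed by -0.45 (95% confidence interval -0.80 to -0.09, limma adjusted p = 0.196), Tfcp2l1 by -0.32 (95% confidence interval -0.58 to -0.06, limma adjusted p = 0.198) and Klf2 by 0.28 (95% confidence interval 0.15 to 0.41, limma adjusted p = 0.105). The median over the 10 was -0.12, beside -0.08 for all genes, and 8 of the 10 were below 0, where 63.3% of all genes were. With median-of-ratios scaling the median was -0.020 and 6 of the 10 were below 0, where 49.9% of all genes were. That Klf2, Tfcp2l1 and Fgf4 passed in Rbbp4 OE and not in Rbbp7 OE was therefore not shown to be a difference between the lines.

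**Figure D4:**
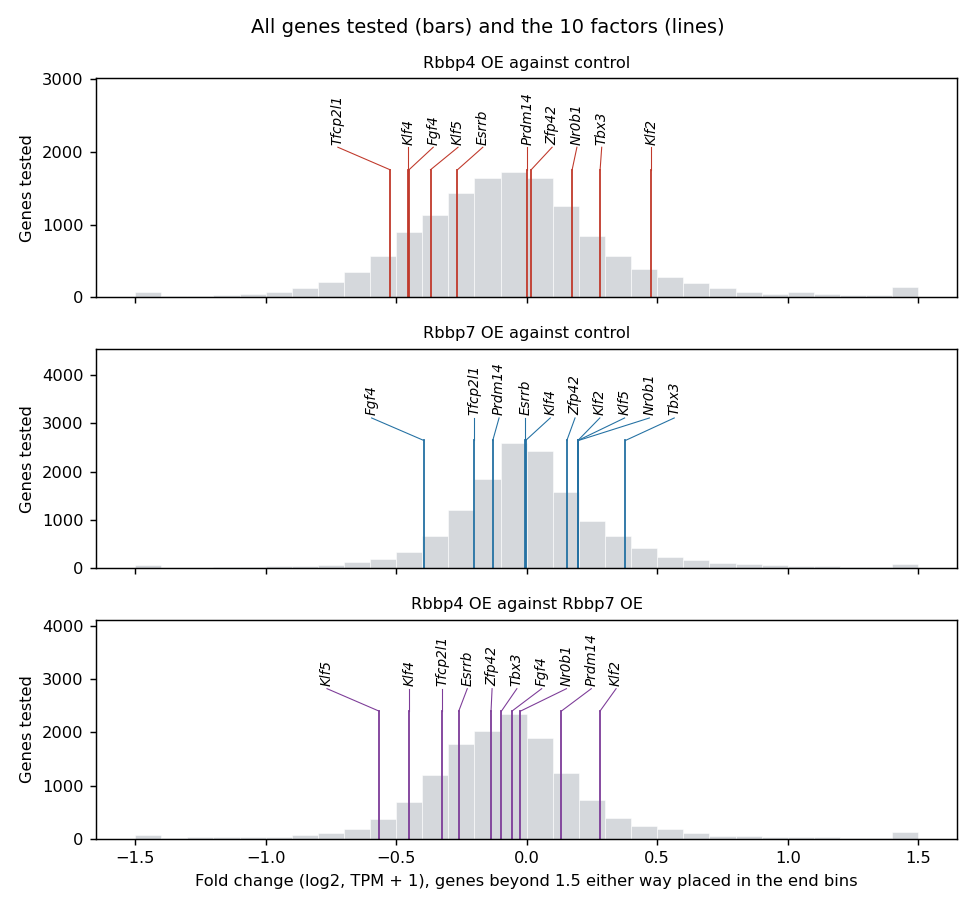
Number of genes tested (y axis) by log2 fold change on the log2(TPM + 1) scale (x axis) in the 3 comparisons, with the 10 factors as lines. The factors lie within the bulk of all genes, with medians of -0.13, 0.07 and -0.12 from top to bottom.

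Across the 6 libraries, Esrrb, Klf4, Klf5 and Tfcp2l1 were positively correlated with each other. Pearson's r of their log2 levels was 0.99 for Esrrb and Klf4, 0.94 for Esrrb and Tfcp2l1, 0.93 for Esrrb and Klf5, 0.92 for Klf4 with either Klf5 or Tfcp2l1, and lowest for Klf5 and Tfcp2l1, at 0.78. Klf2 ran opposite to Tfcp2l1, at -0.90. These are descriptions over 6 libraries that share the groups and the scaling to a fixed total. Among 12382 other protein-coding genes tested, the pattern most like that of Klf2 was Ramp2 (r = 0.999), that of Tfcp2l1 was Uba6 (r = 1.00) and that of Fgf4 was Tango6 (r = 0.995). With 6 libraries such values are common: 140, 673 and 198 genes had r over 0.95 with Klf2, Tfcp2l1 and Fgf4.

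Other genes of the naive network were taken from a list of 20, all of them tested. In Rbbp4 OE against control, 2 were higher and 2 lower at an adjusted p under 0.05, where 3.29% and 8.07% of all genes were. The median log2 fold change of the 20 was -0.02, beside -0.08 for all genes. Gbx2, a homeobox gene downstream of STAT3, rose from 31.81 and 30.25 TPM to 48.01 and 51.58 TPM (log2 fold change 0.66, limma adjusted p = 0.0106), and Pou5f1, which encodes OCT4, from 1577 and 1455 TPM to 1816 and 1781 TPM (0.25, limma adjusted p = 0.0334). Gdf3, a TGF-beta family ligand, fell from 94.89 and 98.97 TPM to 77.06 and 77.56 TPM (-0.32, limma adjusted p = 0.0249), and the homeobox gene Nanog from 484.49 and 521.3 TPM to 434.06 and 419.88 TPM (-0.23, limma adjusted p = 0.0393). Sox2 did not pass, at 0.12 (limma adjusted p = 0.331). With median-of-ratios scaling, Gbx2 was the 1 call left, and the limma adjusted p was 0.0569 for Pou5f1, 0.0593 for Gdf3 and 0.139 for Nanog. In limma, none of the 20 passed in Rbbp7 OE or between the lines. All 4 of these calls were lost without control replicate 2 or any 1 of the Rbbp4 OE and Rbbp7 OE libraries, and all 4 passed without control replicate 1.

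Of 23 genes that signal to the factors, 22 were tested, and 2 were higher and 3 lower in Rbbp4 OE against control. Their median was -0.15. Of all genes, 3.29% were higher and 8.07% lower, with a median of -0.08. Stat3, the effector of LIF, fell from 43.81 and 58.42 TPM to 28.65 and 29.27 TPM (log2 fold change -0.78, limma adjusted p = 0.0255), while Rbbp7 OE had 39.7 and 44.46 TPM. In the FGF branch, the receptor gene Fgfr1 rose from 37.42 and 40.41 TPM to 47.74 and 49.79 TPM (0.32, limma adjusted p = 0.0476). The feedback inhibitors differed from each other: Spry2 rose from 40.02 and 44.28 TPM to 53.49 and 57.74 TPM (0.39, limma adjusted p = 0.0362), and Spry4 fell from 3.88 and 4.21 TPM to 2.24 and 2.44 TPM (-0.59, limma adjusted p = 0.0499). Spry4 had 6.74 and 6.44 TPM in Rbbp7 OE and was the 1 gene of the list that passed between the lines, at -1.18 (limma adjusted p = 0.0499). That call was lost with median-of-ratios scaling (limma adjusted p = 0.062) and was kept in only 3 of 15 alternatives. Without control replicate 1, Stat3 passed and Spry2, Spry4 and Fgfr1 did not, and none of these passed without any other 1 of the libraries.

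Genes of the formative and primed states, which follow the naive state in development, were the third list. Of 15, 13 were tested, and in Rbbp4 OE against control 2 were higher and 0 lower in limma, where 3.29% and 8.07% of all genes were. Above 0 were 11 of the 13 values and 40.7% of all genes, with medians of 0.21 and -0.08. Much of the list was low: 6 of the 13 genes were left when genes under a mean of 5 TPM were removed. In Rbbp7 OE, set against the same controls, 11 of the 13 were above 0, with a median of 0.17. Of all genes, 48.8% were above 0 there, with a median of -0.0037. Zic2, a zinc finger gene of the primed state, rose from 9.57 and 10.21 TPM to 16.94 and 15.2 TPM (log2 fold change 0.65, limma adjusted p = 0.0208) and Tcf15, a basic helix-loop-helix gene linked to readiness for differentiation, from 44.08 and 43.41 TPM to 61.77 and 63.59 TPM (0.51, limma adjusted p = 0.0118). In Rbbp7 OE, Zic2 had 16.24 and 17.37 TPM and Tcf15 56.96 and 59.26 TPM, and none of the list passed in limma. Zic2 lost its call without any 1 of the 6 libraries, and Tcf15 without any except control replicate 1. With the GC and length correction Tcf15 was at 0.27 (limma adjusted p = 0.124).

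**Figure D5:**
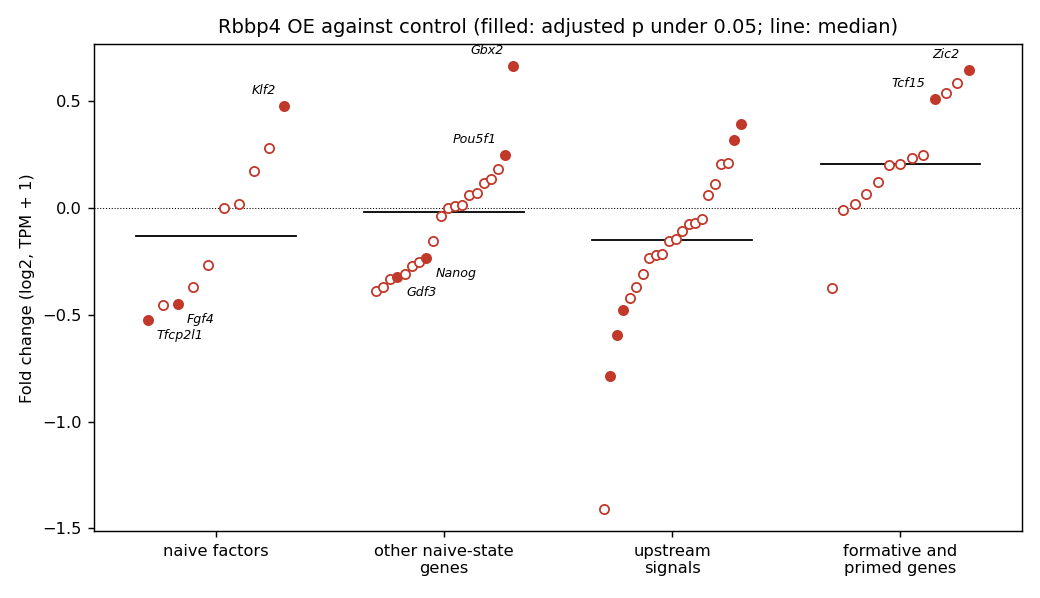
Log2 fold change on the log2(TPM + 1) scale (y axis) in Rbbp4 OE against control of the 10 factors and of 3 related gene lists (x axis), 1 point per gene tested, with each list's median as a line. Filled points have an adjusted p under 0.05 and are named except among the upstream signals; the medians are -0.13, -0.02, -0.15 and 0.21 from left to right.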

How the data were processed

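The authors trimmed reads with Trim_galore, aligned them to mm10 with STAR and quantified genes with RSEM, and deposited 1 table of TPM per library. Since every table has the same total, the depth of sequencing is unknown and no counting interval is given. The sources used here do not state the strand setting. Identifiers were matched to GENCODE M21 (GRCm38, the build of mm10): 55141 of 55401 matched, while the study's annotation is a later release. Because TPM values are not counts, the study's count model was replaced by limma-trend (limma 3.58.1, R 4.3.3) on log2(TPM + 1). The scale understates changes of low genes. Genes with a mean of at least 0.5 TPM were tested in 1 fit of all 6 libraries and 3 groups, with 3 residual degrees of freedom, two-sided, and with Benjamini-Hochberg adjustment over 14156 genes. The fit was also run on simulated data with planted changes of at least 2-fold. These are larger than the change of any member, so the run says nothing about changes of that size. Lower thresholds than the study's were added because the members differed by less than 2-fold.

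The members, lists, tests and named genes (all 10 members, Rbbp4, Rbbp7, Pou5f1, Sox2, Nanog, and list genes at an adjusted p under 0.05 in any comparison) were chosen with earlier results of these data known. The results were also computed with 0.1 or 5 in place of 1 as pseudocount, without the filter or with genes under 5 TPM left out, after scaling by median-of-ratios factors, after quantile normalization, with a block for the replicate number, in fits of 2 groups only, with a robust trend, at other thresholds and without each library in turn. A correction of each library for GC content and transcript length by splines was added once the values had been seen. Some called genes of the lists are counted but not reported by name here.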

Additional observations from a re-analysis of the deposited data

How the results depend on the processing

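The count of 3 factors at an adjusted p under 0.05 in Rbbp4 OE against control became 1 with no filter, 5 with genes under a mean of 5 TPM left out, 1 in fits of only 2 groups and 7 at an adjusted p under 0.1, and ranged from 0 to 6 when 1 library was left out. Of all genes, 709 of 24675 passed with no filter and 2039 of 9035 with genes under a mean of 5 TPM left out. In the 2-group fit 158 of 14156 passed, and 3023 of 14156 did at an adjusted p under 0.1. What made the counts move was not tested. At the study's thresholds the count of 0 became 1 with no fold minimum (Klf2), where 192 of 14156 genes passed. In limma for Rbbp7 OE against control and between the lines, the counts were 0 under each alternative other than leaving out a library. Few genes of any kind passed in these comparisons, so a count of 0 says little about stability. At an adjusted p under 0.05, 1 of 14156 genes passed in the 2-group fit of Rbbp7 OE against control and 8 between the lines. With no filter, 9 and 28 of 24675 did, and with genes under a mean of 5 TPM left out, 137 and 57 of 9035. A library left out leaves its partner, assumed to have the spread of the remaining groups.

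Klf2, Tfcp2l1, Fgf4, Klf4, Klf5, Esrrb, Tbx3 and Nr0b1 kept their direction in Rbbp4 OE against control in all 16 alternatives. So did the 11 called genes of the related lists (15 alternatives for Spry4, which was filtered out in 1). The fold change cannot move with another filter, the replicate block, the robust trend, 2-group fits or an Rbbp7 OE library left out. A direction kept in those alternatives adds no support. Values that changed sign were small. In Rbbp7 OE against control, Klf4 became 0.00068 with median-of-ratios scaling and 0.0051 with quantile normalization, where Esrrb became 0.018. Between the lines, Fgf4 became 0.038 and Nr0b1 0.071 with median-of-ratios scaling, and 0.0098 and 0.034 with quantile normalization. With 1 library left out, the values ranged from -0.052 to 0.057 for Prdm14 and from -0.0092 to 0.044 for Zfp42 in Rbbp4 OE, from -0.12 to 0.11 for Esrrb and from -0.21 to 0.21 for Klf4 in Rbbp7 OE, and from -0.097 to 0.049 for Nr0b1 between the lines. Median-of-ratios scaling divided the libraries by 0.957 to 1.07.

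Replicate numbers gave no sign of pairing: deviations of same-numbered libraries from their group means correlated at -0.03 to 0.03. With the replicate block, 2 factors passed in Rbbp4 OE against control, where 900 of 14156 genes did, beside 1609 in the main fit. They were Klf2 (limma adjusted p = 0.0262) and Fgf4 (limma adjusted p = 0.0437), but not Tfcp2l1 (limma adjusted p = 0.0562). In the other comparisons 0 factors passed under the block, and in Rbbp7 OE against control 9 of 14156 genes did. Of the other naive-state genes only Gbx2 passed under the block. Depth is not kept in TPM, so what it limits is unknown.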
